A study of Mus musculus with 10 samples.

Results

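The 6 miRNAs described here are the guide arms of the mouse hairpins best known for being switched on by inflammatory or other stimuli: mmu-miR-155-5p, mmu-miR-146a-5p, mmu-miR-146b-5p, mmu-miR-147-3p, mmu-miR-132-3p and mmu-miR-212-3p (the prefix for mouse is mostly dropped below). They were chosen by name from the 1892 miRNAs on the array, with earlier results of these data known. They were read on 10 arrays. The titles name 5 of the samples T-C cell and the other 5 Control cell. Under the labels, T-C cell samples have the source Col-/- (also written Col -/-) and Control cell samples the source Control Col. All 10 samples share the description sle liver, male animals and a mouse liver cell culture protocol. The treatment label, the same for every sample, gives 0.5 mg TN-CF per 100000 T-C cells in a dish over 24 hours, alongside a control, and the design text writes TB-CF. None of the abbreviations TN-CF, T-C, Col or sle is spelled out, and treatment and source cannot be told apart. The labels do not say whether replicates are separate cultures or animals, and the p-values therefore reflect only how these arrays vary, possibly for technical reasons.

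NF-kB is a transcription factor that Toll-like receptors and inflammatory cytokines activate in macrophages, lymphocytes and many tissue cells, Kupffer cells and hepatocytes of the liver among them. miR-155 is a classic product of that activation and represses brakes on inflammation such as Socs1 and Inpp5d. miR-146a is induced by the same route but represses the adaptors Traf6 and Irak1, and so acts as negative feedback. miR-132 and miR-212 come from a joint transcript that CREB, a factor responsive to cyclic AMP and calcium, drives in neurons and other stimulated cells.

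The mature sequences are shown because their seeds, which pair with target mRNAs, divide the 6 miRNAs into families, and because near-identical sequences may share signal on an array. They are the target sequences given for the array probes, written 5′ to 3′, with the seed (bases 2 to 8) in capitals.
miR-155-5p: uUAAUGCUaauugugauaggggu
miR-146a-5p: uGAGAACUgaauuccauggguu
miR-146b-5p: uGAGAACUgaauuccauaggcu
miR-147-3p: gUGUGCGGaaaugcuucugcua
miR-132-3p: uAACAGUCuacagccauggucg
miR-212-3p: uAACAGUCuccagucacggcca
Of the 6, 5 matched a RefSeq mature miRNA base for base. miR-146a-5p and miR-146b-5p share a seed, miR-132-3p and miR-212-3p share another, and no other probe on the array carries either. No other probe has the seed of miR-155-5p or of miR-147-3p. Counted from the 5′ end of miR-146a-5p, miR-146b-5p differs from it by the 2 substitutions G18A and U21C, so the signals of these probes may not be fully separate. From miR-132-3p, miR-212-3p differs by 5 substitutions: A10C, C14U, U17C, U20C and G22A. For the remaining miRNAs the nearest other probe was 8 edits away.

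On GRCm38 (RefSeq positions, GENCODE M21 annotation), miR-155-5p lies on chromosome 16 (84714143 to 84714165, plus strand), and its hairpin overlaps an exon of the lincRNA gene Mir155hg. miR-146a-5p lies on chromosome 11 (43374435 to 43374456, minus strand) and overlaps no other gene of the annotation. miR-146b-5p lies on chromosome 19 (46342790 to 46342811, plus strand) in an intron of the protein-coding gene Mfsd13a. The miR-147 hairpin lies on chromosome 2 (122640803 to 122640881, plus strand) and overlaps an exon of the protein-coding gene AA467197. miR-212-3p (75173443 to 75173464) and miR-132-3p (75173723 to 75173744) lie on the plus strand of chromosome 11 in an intron of the non-coding gene 1700016P03Rik, with 203 bases between their hairpins.

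The 3968 spots of an array include 3784 for miRNAs, at 2 per miRNA, and 16 blanks. An intensity is a median spot brightness in scanner units, and the value of a miRNA on an array is the mean of its 2 spots. A miRNA counted as detected where that value exceeded the mean of the array's blank spots plus 3 SD. This limit was 133, 176, 474, 209 and 201 on T-C cell replicates 1 to 5 and 162, 319, 300.1, 170 and 64.0 on Control cell replicates 1 to 5. T-C cell replicate 3, with the highest limit, had 189 detected miRNAs, and Control cell replicate 5, with the lowest, had 1314. T-C cell replicate 1 held the lowest level of all 10 arrays for 29.6% of the 476 miRNAs tested and the highest for 25.8%. Of the miRNAs that mark cell types, those of epithelium, fibroblast or smooth muscle were bright in both groups, and of the 4 listed for hepatocytes, miR-192-5p, miR-194-5p and miR-148a-3p were detected on 10 of 10 arrays. The fourth, miR-122-5p, was detected on 1 of 10 arrays, although the labels name liver. Of the muscle and endothelial lists, miR-1a-3p, miR-133a-3p and miR-126a-3p were detected on 10 of 10 arrays, miR-206-3p on 8 and miR-126a-5p on 1. Precision is limited by the number of arrays.

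None of the 6 miRNAs differed between T-C cell and Control cell samples beyond the spread between arrays. Detection separated them into 3 tiers. miR-146a-5p was detected on 10 of 10 arrays, miR-146b-5p and miR-132-3p on 9, and miR-155-5p on 6. miR-212-3p was detected on 3 arrays and miR-147-3p on 2, which left them untested in the main comparison. Of 476 tested miRNAs, 7.77% passed a limma adjusted p of 0.05 (1.47% with the T-C cell level above and 6.3% with it below). Of the 4 tested members 0 passed. None of the 4 passed at an unadjusted p of 0.05 either, by limma (lowest p = 0.449) or by a two-sided exact permutation test with 252 possible splits (lowest p = 0.476). The groups overlapped for every member, while 3.78% of the tested miRNAs had groups that did not overlap.

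**Figure D1:**
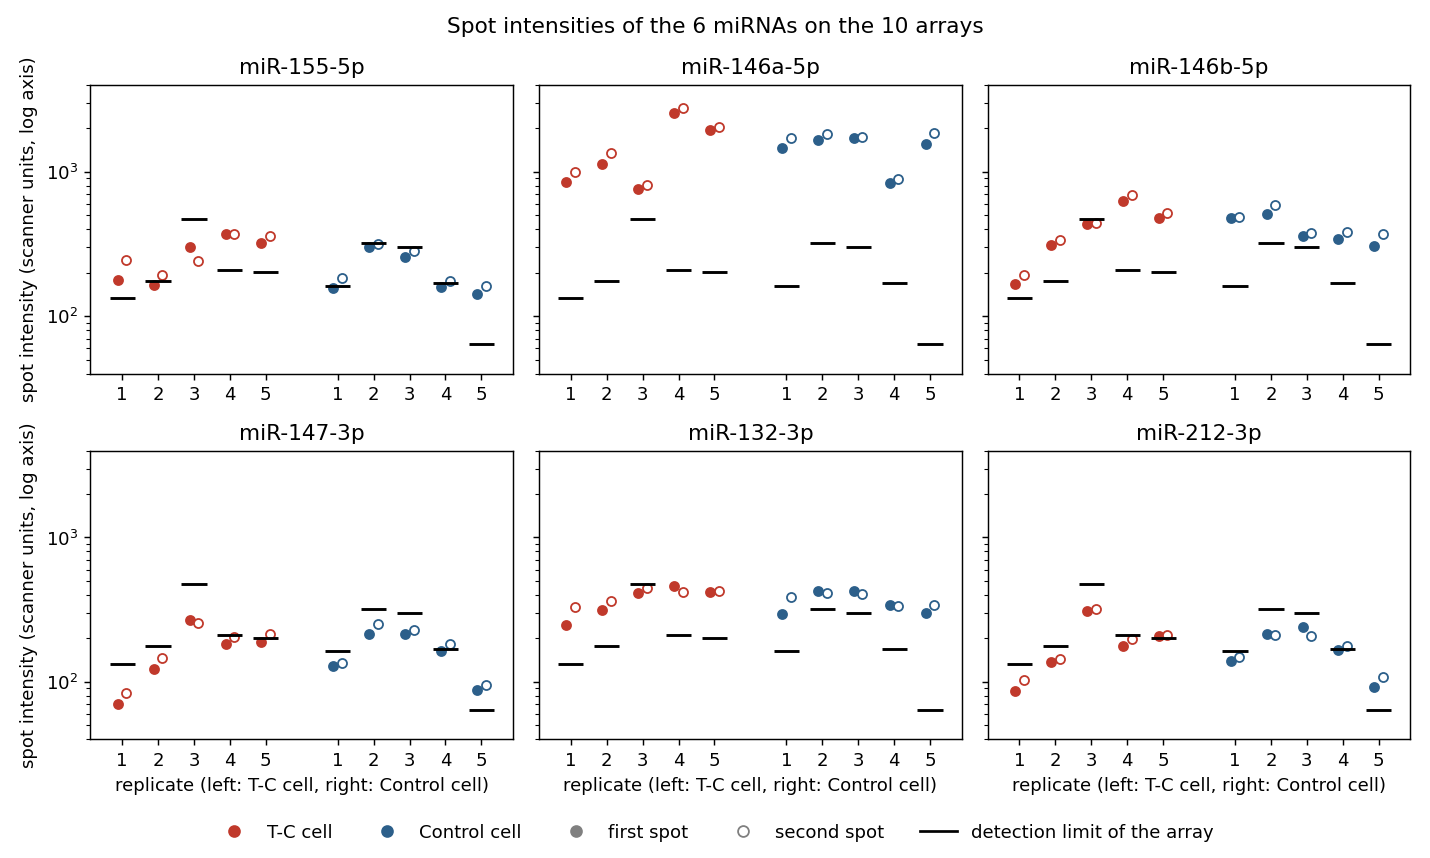
Intensities of both spots of each miRNA (filled: first spot, open: second spot; scanner units, log axis) on the 5 T-C cell arrays (left, red) and the 5 Control cell arrays (right, blue), with each array's detection limit as a black bar. miR-146a-5p lies above the limit on 10 of 10 arrays, while miR-147-3p exceeds it on 2 and miR-212-3p on 3.

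mmu-miR-155-5p is the member whose rise most often marks activated macrophages and lymphocytes. Its intensity was 211, 179, 272, 373 and 340.4 on T-C cell replicates 1 to 5, against 171, 308, 272, 167 and 152 on Control cell replicates 1 to 5. T-C cell replicates 4 and 5 were the brightest 2 arrays, and the other T-C cell arrays lay within the range of the Control cell arrays. It was detected on 4 of 5 T-C cell arrays and 2 of 5 Control cell arrays, but 3 Control cell values lay just under their limits, at 0.965, 0.906 and 0.986 of it. On the scale of log2(intensity + 50) after normalization, its level was 8.27 ± 0.34 on T-C cell arrays and 8.14 ± 0.20 on Control cell arrays (SD, n = 5 each). The log2 difference was 0.13 (95% interval −0.23 to 0.48, limma adjusted p = 0.766), or 1.09-fold with an interval from 0.855 to 1.39. Because blank signal stays in these intensities, a change in a miRNA this close to the limit is understated. After subtraction of the blank mean, with a floor of 1, the interval widened to −1.13 to 1.45, so a 2-fold change in either direction was not excluded on that scale.

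mmu-miR-146a-5p, the feedback repressor, was the brightest member. Its intensity was 919, 1242, 788, 2666 and 1996 on T-C cell replicates 1 to 5, against 1588, 1734, 1742, 866 and 1707 on Control cell replicates 1 to 5. The T-C cell arrays held both the lowest value (replicate 3) and the highest (replicates 4 and 5), and Control cell replicate 4 stood well below the other 4 Control cell arrays. By brightness it ranked between 72 and 191 of the 1892 miRNAs on T-C cell arrays and between 89 and 139 on Control cell arrays. Its level was 10.41 ± 0.73 on T-C cell arrays and 10.60 ± 0.39 on Control cell arrays (SD, n = 5 each). The log2 difference was −0.18 (95% interval −0.89 to 0.52, limma adjusted p = 0.831), or 0.880-fold with an interval from 0.540 to 1.43. Subtracting blanks changed this little, with an interval of −0.93 to 0.65. A 2-fold decrease lies outside both intervals, but inside that under median centring (−1.22 to 0.79) and those without T-C cell replicate 2, 4 or 5 or Control cell replicate 4, whose lower ends lay between −1.08 and −1.01. Its SE of 0.32 was larger than that of 88.7% of tested miRNAs. Without T-C cell replicate 1 the log2 difference was 0.08 (limma adjusted p = 0.961), the opposite sign.

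mmu-miR-146b-5p, the relative with the same seed encoded on another chromosome, had intensities of 181, 324, 438, 663 and 498 on T-C cell replicates 1 to 5. On Control cell replicates 1 to 5 they were 483, 547, 368, 362 and 341. In raw intensity T-C cell replicate 1 was the dimmest array and T-C cell replicate 4 the brightest, with all Control cell values between them. After normalization Control cell replicates 1 and 2 (9.28 and 9.29) lay above T-C cell replicate 4 (9.25). Its level was 8.76 ± 0.76 on T-C cell arrays and 8.97 ± 0.30 on Control cell arrays (SD, n = 5 each). The log2 difference was −0.21 (95% interval −0.92 to 0.49, limma adjusted p = 0.803) and became 0.14 (limma adjusted p = 0.790) without T-C cell replicate 1. With blanks subtracted the interval was −1.55 to 0.99, so a 2-fold decrease was not excluded. The log2 distance from miR-146b-5p up to miR-146a-5p on the same array was 1.66 ± 0.45 on T-C cell arrays and 1.63 ± 0.41 on Control cell arrays (SD, n = 5 each). That distance compares brightness of separate probes, not numbers of molecules.

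mmu-miR-147-3p, which Toll-like receptor ligands induce in mouse macrophages, stood close to the level of the blanks. Its intensity was 77.0, 135, 262, 194 and 201 on T-C cell replicates 1 to 5, of which 0 exceeded the limit. On Control cell replicates 1 to 5 it was 133, 233, 223, 173 and 91.5, of which replicates 4 and 5 exceeded the limit. T-C cell replicates 4 and 5 lay just under their limits, at 0.926 and 0.997 of them, and Control cell replicate 5 had the lowest limit of all arrays. On T-C cell replicates 1 and 2 the intensity lay below the mean of the blank spots. In the fit over all 1892 miRNAs the log2 difference was −0.14 (95% interval −0.35 to 0.07, limma adjusted p = 0.903). With blanks subtracted the interval ran from −3.68 to 0.68, so the narrow interval does not bound a change in the miRNA itself, and a change was not detectable at this signal.

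mmu-miR-132-3p, which represses regulators of the cytoskeleton and of chromatin in neurons, was detected in both groups at similar brightness. Its intensity was 289.9, 339, 432, 442 and 425 on T-C cell replicates 1 to 5, against 341, 417, 416, 338 and 320.1 on Control cell replicates 1 to 5. In raw intensity T-C cell replicate 1 was the dimmest array, and T-C cell replicates 3, 4 and 5 were the brightest 3, slightly above the Control cell arrays. The value on T-C cell replicate 3 was 0.913 of the limit of that array. After normalization T-C cell replicates 2 and 3 (8.94 and 9.04) were highest. T-C cell replicates 4 and 5 then lay within the range of the Control cell arrays (8.70 to 8.93). Its level was 8.72 ± 0.42 on T-C cell arrays and 8.81 ± 0.09 on Control cell arrays (SD, n = 5 each). The log2 difference was −0.09 (95% interval −0.53 to 0.34, limma adjusted p = 0.875), or 0.939-fold with an interval from 0.695 to 1.27. Without T-C cell replicate 1 it was 0.10 (limma adjusted p = 0.784), and it was also positive under quantile normalization (0.07) and without normalization (0.06). With blanks subtracted the interval was −0.90 to 0.83. A 2-fold change in either direction lies outside it, but the interval reflects only how these arrays vary.

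mmu-miR-212-3p, the neighbour of miR-132-3p with the same seed, had intensities of 95.3, 141, 315, 188 and 211 on T-C cell replicates 1 to 5. On Control cell replicates 1 to 5 they were 143, 213, 224, 172 and 99.8. Only T-C cell replicate 5 and Control cell replicates 4 and 5 exceeded the limit. In the fit over all 1892 miRNAs the log2 difference was −0.06 (95% interval −0.27 to 0.14, limma adjusted p = 0.922). With blanks subtracted it was 0.15 with an interval of −1.31 to 1.61. The log2 distance from miR-212-3p up to miR-132-3p was 0.92 ± 0.22 on T-C cell arrays and 0.94 ± 0.12 on Control cell arrays (SD, n = 5 each). The intensity of miR-212-3p was 1.04 to 1.41 times the blank mean on T-C cell arrays and 0.937 to 1.82 times on Control cell arrays, so this distance is compressed.

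**Figure D2:**
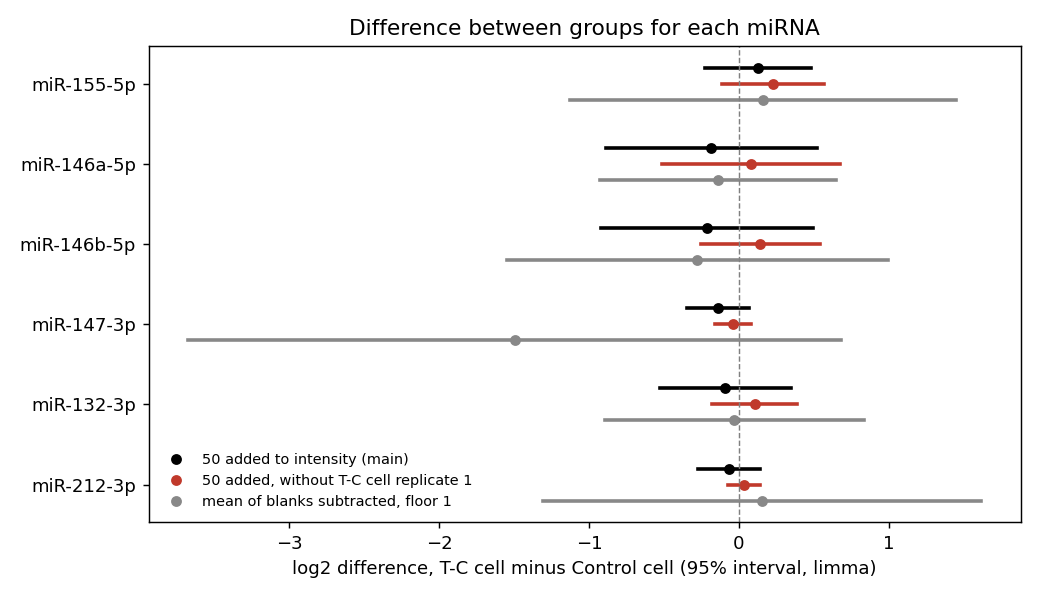
Log2 difference (T-C cell minus Control cell; points) with its 95% interval from limma (lines) for each miRNA with 50 added to each intensity (black), the same without T-C cell replicate 1 (red), and with the blank mean subtracted to a floor of 1 (grey). Every interval includes 0, and that of miR-147-3p widens from −0.35 to 0.07 in black to −3.68 to 0.68 in grey.

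T-C cell replicate 1 recurs in these comparisons. After normalization it had the lowest level of all 10 arrays for 5 of the 6 members, all except miR-155-5p. Of these, miR-147-3p and miR-212-3p were not detected on that array. Over all 476 tested miRNAs it was lowest for 29.6% and highest for 25.8%, so it was extreme well beyond the members. miR-146b-5p stood at 7.41 there, against 8.67 to 9.29 on the other 9 arrays, and miR-132-3p at 7.99, against 8.70 to 9.04. Without that array the log2 differences of miR-146a-5p, miR-146b-5p, miR-132-3p and miR-212-3p turned positive, none past the threshold. Its part in the spread was measured by leaving it out, and no cause was tested.

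The levels of miR-155-5p and miR-146a-5p varied together across arrays within both groups. Over the 10 arrays their normalised levels had a Pearson r of 0.85 and a Spearman rho of 0.89. Of the 475 other tested miRNAs, miR-146a-5p had the highest r with miR-155-5p, where the median of the others was 0.07. Seen from miR-146a-5p, miR-155-5p came second. Within the T-C cell arrays r was 0.95 and within the Control cell arrays 0.88, each over only 5 arrays. T-C cell replicates 4 and 5 were highest for both miRNAs, and T-C cell replicate 1 and Control cell replicate 4 were lowest for both. r was 0.84 without the 2 arrays farthest from the median of miR-155-5p and 0.81 without the 2 farthest from that of miR-146a-5p. It was 0.74 under quantile normalization and 0.49 without normalization, and miR-155-5p is close to background, so the relation depends on the scaling. Within the Control cell arrays miR-155-5p had a higher r with miR-132-3p, 0.948. For miR-155-5p and miR-132-3p r was 0.42 within the T-C cell arrays and 0.39 over all 10 arrays. Without normalization it was 0.85. These arrays share one normalization, and the values are a description, noticed in these data, without a test.

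miR-146b-5p and miR-132-3p looked still closer, with r = 0.90, but rho was 0.52 and r without T-C cell replicate 1 was 0.32. Within the T-C cell arrays r was 0.93 and within the Control cell arrays, which do not include that replicate, 0.73, each over 5 arrays. For miR-146a-5p and miR-146b-5p, the pair with a common seed, r was 0.74 with all arrays and 0.34 without T-C cell replicate 1. The log2 distance from miR-146a-5p to miR-155-5p was −2.14 ± 0.42 on T-C cell arrays and −2.46 ± 0.23 on Control cell arrays (SD, n = 5 each), and the groups overlapped. Background in the dimmer miR-155-5p compresses this distance, which on raw intensities with blanks subtracted lay between −4.69 and −2.70 on T-C cell arrays and between −4.58 and −3.80 on Control cell arrays.

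**Figure D3:**
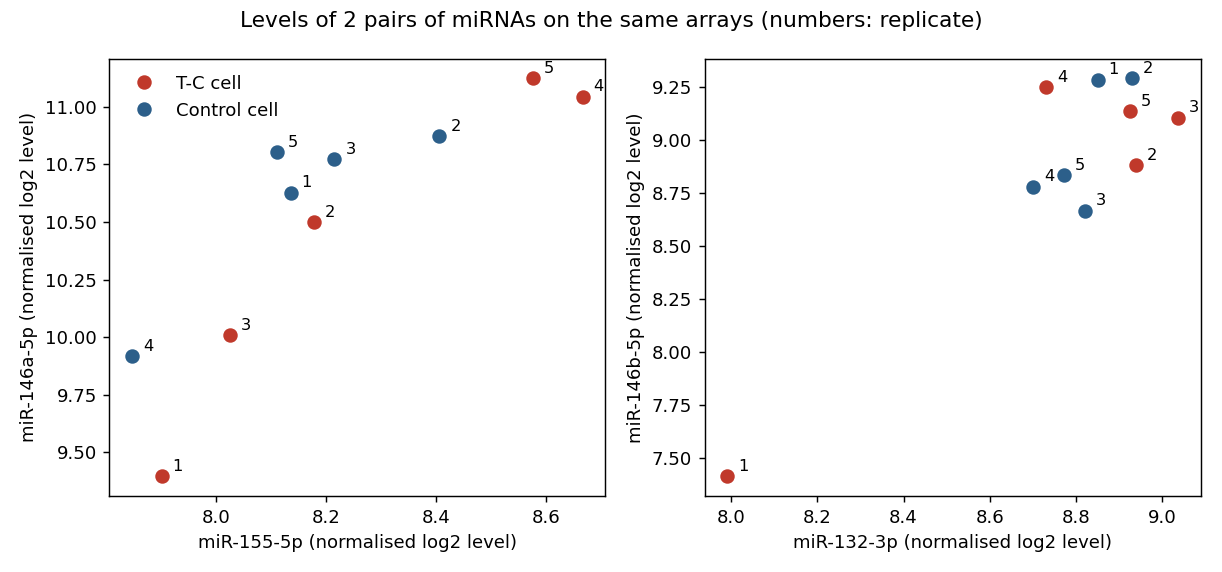
Normalised log2 levels of miR-146a-5p against miR-155-5p (left) and of miR-146b-5p against miR-132-3p (right) on the same arrays, T-C cell in red and Control cell in blue, numbered by replicate. On the left miR-146a-5p rises with miR-155-5p in each group (r = 0.85 over all arrays). On the right T-C cell replicate 1 lies alone at the lower left (r = 0.90 with it and 0.32 without it).

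Outside the members, the miRNAs whose levels over the 10 arrays were most like each tested member were named by highest Pearson r, as a description. For miR-155-5p these were miR-7683-3p (r = 0.75) and miR-1224-5p (0.73). For miR-146a-5p they were miR-139-5p (0.89) and miR-541-5p (0.82). For miR-146b-5p they were miR-532-5p (0.94) and miR-34a-5p (0.91), and for miR-132-3p they were miR-222-3p (0.93) and miR-320-3p (0.93). Without T-C cell replicate 1 these r were 0.76, 0.76, 0.81, 0.66, 0.61, 0.53, 0.57 and 0.79 in the same order. The lowest limma adjusted p among these miRNAs was 0.603, and none has the seed of its member.

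The opposite arms of the 6 hairpins, usually degraded after processing, were at background. miR-155-3p, miR-146a-3p and miR-146b-3p were detected on 0 of 10 arrays, and miR-147-5p, miR-132-5p and miR-212-5p on 1 each. Their intensities were between 0.780 and 1.45 times the blank mean of the array, so no opposite arm was tested. In the fit over all miRNAs their log2 differences lay between −0.03 and 0.02.

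Among 11 other miRNAs tied to Toll-like receptor or NF-kB signalling, all tested, 1 rose, 0 fell and 10 did not pass. Over all 476 tested miRNAs 1.47% were called higher and 6.3% lower, so these few calls do not set the list apart. The median log2 difference was 0.03 against 0.02 over all tested miRNAs. let-7e-5p, a member of the growth-restraining let-7 family, rose by 0.98 (95% interval 0.63 to 1.33, limma adjusted p = 0.0142). The rise was not particular to let-7e-5p. Outside this list, let-7a-5p (0.62, limma adjusted p = 0.0419), let-7b-5p (0.68, 0.0351) and let-7d-5p (0.61, 0.0419) passed too. let-7c-5p, at 0.49 (limma adjusted p = 0.0571), did not pass. Whether the let-7 probes share signal was not tested. let-7e-5p shares a cluster with miR-99b-5p and miR-125a-5p, which had log2 differences of 0.36 (limma adjusted p = 0.370) and 0.35 (0.381). Its level was 10.31 ± 0.17 on T-C cell arrays and 9.33 ± 0.23 on Control cell arrays (SD, n = 5 each), with no overlap. Leaving out Control cell replicate 2 (limma adjusted p = 0.0615), Control cell replicate 3 (0.0560) or T-C cell replicates 1 and 3 together (0.0697) ended this call, as did median centring (0.440) and testing all miRNAs (0.125). Its exact permutation p of 0.00794 was the smallest that 252 splits allow. The adjusted permutation p of 0.168 is limited by these few splits and does not decide the call. The inflammation-linked miR-21a-5p, the brightest of this list, differed by −0.26 (95% interval −0.54 to 0.03, limma adjusted p = 0.362), and miR-125b-5p, which restrains Tnf, by 0.50 (−0.02 to 1.01, limma adjusted p = 0.302). The endothelial and growth-linked pair miR-221-3p and miR-222-3p differed by −0.07 and −0.08, miR-9-5p by −0.00, miR-187-3p by −0.10 and miR-301a-3p by 0.03. Of the activity-dependent or CREB-linked miR-134-5p, miR-184-3p, miR-9-3p and miR-124-3p, 0 were detected often enough to be tested.

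Leukocyte miRNAs are given beside miR-155-5p and miR-146a-5p because blood cells express both. All 5 listed markers had positive log2 differences, from 0.29 (miR-223-3p, of myeloid cells) to 0.86 (miR-150-5p, of mature lymphocytes), and the median was 0.38. Over all 476 tested miRNAs 252 had a positive difference and 1.47% were called higher. miR-150-5p rose (limma adjusted p = 0.0433), and 4 did not pass. It held under 11 of 27 alternatives (limma adjusted p from 0.0223 to 0.876). The 27 include exact permutation, where the number of splits limits the adjusted p (0.168 for miR-150-5p). The single arrays whose removal took it past 0.05 were, among T-C cell, replicates 1, 4 and 5 (0.0839, 0.0995 and 0.0895), and among Control cell, replicates 1, 2, 3 and 5 (0.100, 0.0844, 0.109 and 0.0928). The summed normalised intensity of the 5 ranged from 2789.7 to 4395 in T-C cell and from 1902 to 2766 in Control cell arrays. Each marker was detected on at least 5 arrays. More or fewer cells of a type cannot be told apart from more or less of a miRNA per cell in such samples. T-C cell replicates 4 and 5, highest for miR-155-5p, had marker sums of 4395 and 4198, but T-C cell replicate 1, low for miR-155-5p, had 4193. The part of leukocytes in the values of miR-155-5p and miR-146a-5p was not tested.

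**Figure D4:**
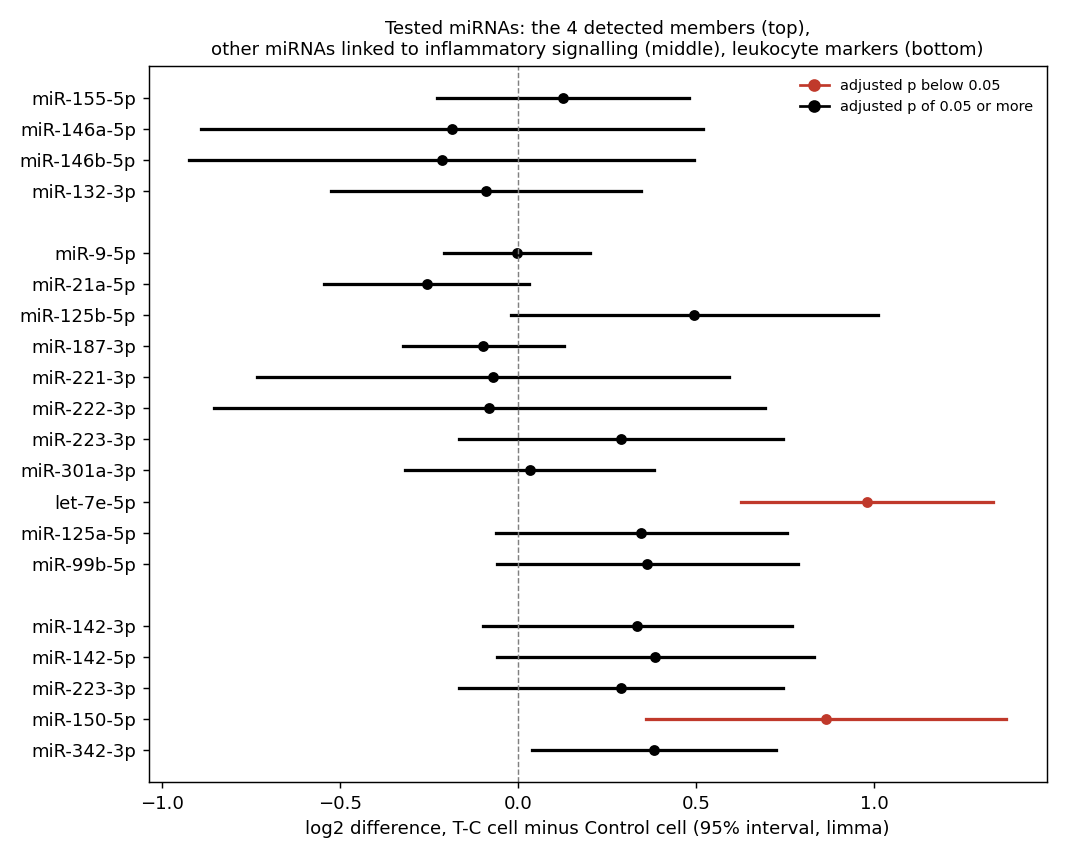
Log2 differences (T-C cell minus Control cell; points) with 95% intervals from limma for the 4 tested members (top), 11 other miRNAs linked to inflammatory signalling (middle) and 5 leukocyte markers (bottom), with miR-223-3p in both lower lists. The miRNAs in red, let-7e-5p (0.98) and miR-150-5p (0.86), are the ones past an adjusted p of 0.05.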

How the data were processed

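MicroRNA arrays of 5 T-C cell and 5 Control cell samples came from a service provider (LC Sciences). Per the labels, 1 µg of total RNA received a poly(A) tail, then a ligated tag for Cy3 staining. Per the file headers, the authors deposited the median intensity of each spot, a linear brightness not scaled between arrays. The other brightness columns hold no values. The scanner and its software: not given in the sources used here.

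With 50 added, intensities were log2-transformed, both spots of each miRNA averaged, and arrays normalized by cyclic loess over all 1892 miRNAs (limma 3.58.1, R 4.3.3, jsonlite 2.0.0; figures with Python 3.11.15, matplotlib 3.10.9). A miRNA detected on at least 5 of 10 arrays was tested with limma (eBayes with trend, two-sided, Benjamini-Hochberg over 476 miRNAs, 95% intervals). Members detected less often take their values from the same fit over all 1892. The procedure was run on simulated arrays. These had independent errors for each miRNA and kept changed miRNAs above background, so they do not speak to members near background. Groups and replicate numbers come from the titles. The highest correlation between arrays was 0.979, and no array was counted as a duplicate.

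The members, their comparison lists and the naming rule (members, listed miRNAs, and the 2 most correlated with each tested member) were chosen with earlier results of these data known. The marker miR-142 carries that name on the array. Marker lists were leukocyte, hepatocyte, epithelial, endothelial, fibroblast or smooth muscle, and muscle. In the hepatocyte, epithelial, endothelial, fibroblast or smooth muscle, and muscle lists 0 of 3, 0 of 5, 0 of 1, 0 of 4 and 0 of 3 tested markers passed, with median log2 differences of 0.10, −0.21, −0.01, 0.06 and −0.06. Over all 476 tested miRNAs 7.77% passed. Alternatives changed the normalization, the added value, background, the filter, spots, weights, the test and single arrays.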

Additional observations from a re-analysis of the deposited data

Results flagged for a closer look

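In all, 3 values stood apart from the other samples of their group by Dixon's criterion, which chance meets in about 5% of groups; 12 groups were examined. On T-C cell replicate 1, miR-212-3p had a level of 7.43, against 7.89 to 7.93 on the other T-C cell arrays (gap over range 0.914). It was not detected on that array, at 0.715 of the limit, so this value is a background reading. On the same array miR-146b-5p had a level of 7.41, against 8.88 to 9.25 (gap over range 0.799). On Control cell replicate 4, miR-146a-5p had a level of 9.92, against 10.63 to 10.87 on the other Control cell arrays (gap over range 0.743).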

How the results depend on the processing

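No member passed the threshold under any of the 27 alternatives (26 for the members other than miR-146a-5p, the only one detected on 10 of 10 arrays), and miR-155-5p kept a positive difference throughout, from 0.02 to 0.33. The signs of the other members changed. With array weights the log2 difference was 0.00854 for miR-146a-5p, 0.00652 for miR-146b-5p and 0.0201 for miR-132-3p. Under quantile normalization it was 0.0724 for miR-132-3p and 0.0283 for miR-212-3p, and without normalization 0.0556 and 0.0877 for these and 0.00106 for miR-147-3p. With blanks subtracted it was 0.15 for miR-212-3p. With T-C cell replicates 1 and 3 left out together, an alternative chosen after seeing the data, it was 0.31 for miR-146a-5p, 0.10 for miR-146b-5p, 0.0134 for miR-147-3p, 0.0312 for miR-132-3p and 0.0274 for miR-212-3p. With single arrays left out, miR-155-5p ranged from 0.02 to 0.23, miR-146a-5p from −0.37 to 0.0820, miR-146b-5p from −0.34 to 0.14, miR-147-3p from −0.19 to −0.04, miR-132-3p from −0.175 to 0.10 and miR-212-3p from −0.0954 to 0.0355.

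The count of all miRNAs past the threshold, 37, was 14 under median centring, 3 with blanks subtracted, 1 without a detection filter (more miRNAs tested), 18 among those detected on 10 of 10 arrays (fewer tested) and 1 without T-C cell replicates 1 and 3. It was 2 with a limit from the median and MAD of the blanks, also chosen after seeing the data, and from 1 to 44 with single arrays left out: leaving out T-C cell replicate 1 gave 12, T-C cell replicate 4 gave 2, and Control cell replicates 1, 2, 3 and 5 gave 3, 1, 1 and 3. Where nothing is said, the cause was not tested. With the replicate number as a block the count was 22 and no call of a member changed. Deviations of same-numbered arrays from their group means had r from −0.20 to 0.26. No pairing by number was evident, but these values cannot exclude it.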

Other observations

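Under a detection limit of the median plus 3 MAD of the blanks, miR-155-5p, miR-146b-5p and miR-132-3p were detected on 10 of 10 arrays, and miR-147-3p and miR-212-3p on 6, 3 in each group.

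The 2 spots of a member differed by a median of 0.09 to 0.16 on the log2 scale of raw intensity, against 0.14 over all tested miRNAs. For miR-146a-5p and miR-146b-5p the second spot was the brighter on 10 of 10 arrays.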
